A study of Mus musculus with 4 samples.

Results

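Genes of the skeletal muscle sarcomere and of the myogenic programme were followed in tracheae taken from C57BL/6 mouse embryos on embryonic day 16. The set held 38 of the 18193 genes on the array and was chosen by gene name, as structural, regulatory and synaptic genes of striated muscle. Each gene was read from its probe set with the highest mean log2(signal + 16) over the arrays. One group was an a1H knockout and the other wild type, with 2 arrays each, numbered 1 and 2 in both genotypes. a1H is taken here as the alpha subunit of a T-type calcium channel encoded by Cacna1h, and the design text says that homozygous embryos were sought. The labels state neither how the allele was made nor whether a sample was 1 embryo or a pool.

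Skeletal muscle fibres form when myoblasts leave the cell cycle under the basic helix-loop-helix factors Myf5, Myod1, Myog and Myf6, fuse, and assemble sarcomeres of actin thin filaments and myosin thick filaments. Troponin on the thin filament senses calcium released from the sarcoplasmic reticulum, and many of its parts exist as separate fast-fibre and slow-fibre genes. Around the trachea such muscle lies in the larynx, the neck and the wall of the oesophagus, and several slow-fibre genes are also used by the heart.

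The arrays carried MAS5 signals, an intensity on a linear scale. Cacna1h, the targeted gene, read 981 and 631 in the labelled knockout and 630 and 538 in wild type, so it was not lower on the arrays labelled knockout. Where its probes lie relative to the deleted part is not known here, so these values do not check the labels, and the group is called the labelled knockout throughout. Of 10 markers of the trachea, led by the cartilage genes Col2a1 and Acan, 9 were at or above the signal of 397 that was the minimum for testing, and the 10 summed to 54253 and 76994 in the labelled knockout and 60444 and 90007 in wild type. Heart markers were present too and differed between arrays of 1 genotype. The 10 of them summed to 90465 and 22628 in the labelled knockout and to 52155 and 29737 in wild type. Of these sums Tnnt2, which fetal skeletal muscle also makes, gave 22356 and 19280 in the labelled knockout and 15070 and 13068 in wild type. Placental markers, 4 genes, summed to 407 and 86249 in the labelled knockout and to 579 and 748 in wild type. Spiked control probe sets, at a geometric mean of 4744 and 14007 in the labelled knockout and 4787 and 11598 in wild type, were closer between arrays of the same number than between arrays of 1 genotype. Differences within number 1 and within number 2, each 1 labelled knockout array minus the wild-type array of that number, are therefore given beside pooled ones. In whole tissue, fewer muscle cells and less RNA per cell cannot be told apart.

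No member passed the test of genotype. In the limma fit of 11694 genes, 0 were under 0.05 after Benjamini-Hochberg adjustment (0% of genes), and the smallest adjusted p among members was 0.875. Of the 38 members 37 were bright enough to be tested. At an unadjusted p under 0.05, where 536 genes stood, 2 members were higher in the labelled knockout, Tnni1 and Actn2, against 2.83% of all genes. Log2 differences are given as labelled knockout minus wild type. Over all 38 members they had a median of 0.15, with 30 above 0 and 8 below. Over all genes tested the median was 0.04, with 6540 of 11694 above 0. Groups did not overlap, with the labelled knockout higher, for 9 of 37 members, against 21.5% of all genes tested, and for 0 members with it lower, against 14.6%. Within both replicate numbers 13 of 37 were higher, against 36% of all genes, so these last counts of higher members stood near their backgrounds. An exact two-sided permutation test of 2 arrays against 2 cannot give a p below 0.333.

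**Figure D1:**
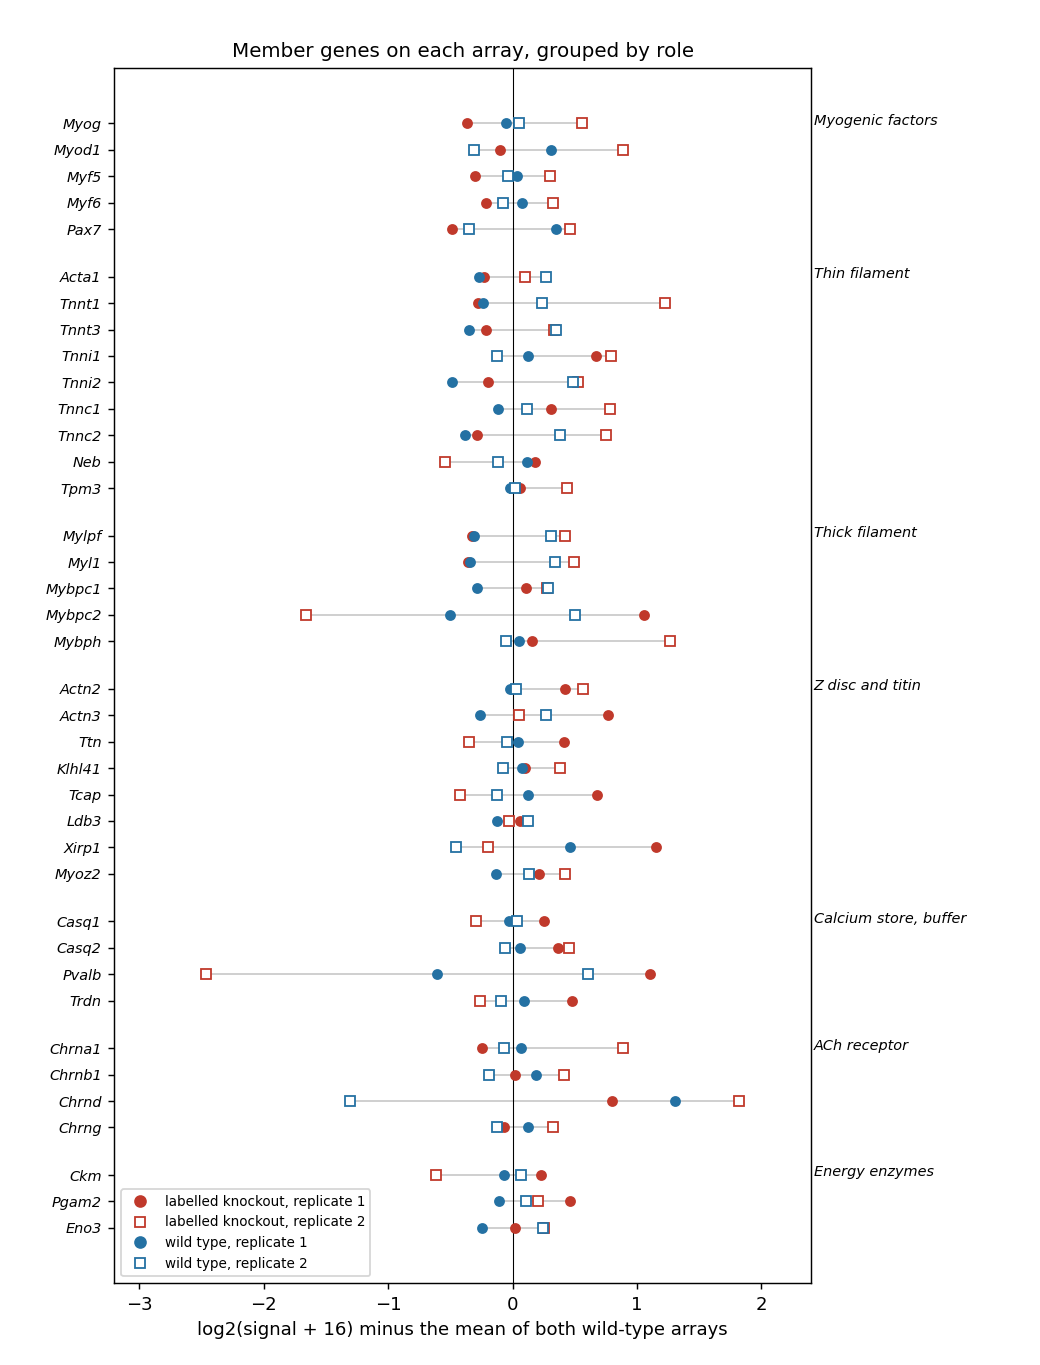
Signal of the 38 member genes on each array, as log2(signal + 16) minus the mean of both wild-type arrays, with genes grouped by role. Red marks are the labelled knockout, blue marks wild type, filled circles replicate 1 and open squares replicate 2. The widest spreads are those of Pvalb, Chrnd and Mybpc2, while Tnni1, Actn2 and Casq2 have both red marks right of both blue ones.

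Members of slow fibres had higher signals in the labelled knockout on their brightest probe sets, in 7 of 7 genes, beside 6540 of 11694 over all genes tested. Their log2 differences had a median of 0.41. The medians were 0.34 within number 1 and 0.52 within number 2. None passed the limma test. Tnni1, the slow troponin I that blocks the actin-myosin cycle when calcium is low, read 11030 and 11997 in the labelled knockout and 7564 and 6350 in wild type. Both labelled knockout arrays stood above both wild-type arrays, at 11513 ± 684 against 6957 ± 858 (SD, n = 2 each). Its log2 difference was 0.73 ± 0.19 (SE), with an unadjusted 95% interval of 0.28 to 1.18 and a limma adjusted p of 0.875. It was 0.54 within replicate number 1 and 0.92 within number 2.

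Tnnc1, the calcium-binding troponin C of slow fibres and heart, read 17172 and 23843 in the labelled knockout and 12748 and 15028 in wild type. The groups did not overlap, and its log2 difference was 0.55 ± 0.27 (SE), or 0.43 within replicate number 1 and 0.67 within number 2. Casq2, the calsequestrin that binds calcium in the store of heart and slow fibres, read 13803 and 14717 in the labelled knockout and 11194 and 10264 in wild type, a log2 difference of 0.41 ± 0.20 (SE). Its 4 arrays were again ordered with both labelled knockout arrays above both wild-type arrays. Myoz2, a calcineurin-binding protein of the Z disc, read 8441 and 9790 in the labelled knockout and 6658 and 7974 in wild type, a log2 difference of 0.32 that was alike within both numbers, 0.34 and 0.30.

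The remaining slow genes did not keep this order on every array or probe set. Tnnt1, slow troponin T, which ties the troponin complex to tropomyosin, read 8137 and 23086 in the labelled knockout and 8368 and 11641 in wild type. Only labelled knockout replicate 2 stood apart, and the log2 difference was 0.47 ± 0.46 (SE), with -0.04 and 0.99 within the numbers. Mybpc1, the slow myosin-binding protein C, read 12810 and 14458 in the labelled knockout and 9788 and 14476 in wild type. It differed by 0.19 in log2 signal on its brightest set but by -0.69 and -0.58 on 2 dimmer ones. Tpm3, a tropomyosin of slow fibres that is also made in non-muscle cells, had 0.25 on its brightest probe set, an x_at set that can bind more than 1 transcript. The 4 other Tpm3 probe sets lay between -0.20 and 0.12. Averaging every probe set of a gene in place of the brightest left 5 of 7 slow members higher.

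Fast-fibre members showed no common direction. Of 9 genes 6 were higher and 3 lower, with a median log2 difference of 0.06, or 0.29 within number 1 and -0.01 within number 2. The troponins and light chains of fast fibres were among the brightest signals. Tnnt3, fast troponin T, read 16512 and 24081 in the labelled knockout and 15024 and 24329 in wild type, and Tnni2, fast troponin I, read 17570 and 29002 in the labelled knockout and 14389 and 28314 in wild type. Tnnc2, fast troponin C, read 16418 and 33804 in the labelled knockout and 15368 and 26219 in wild type. Another Tnni2 probe set read 18151 and 17485 in the labelled knockout and 15321 and 28266 in wild type, a log2 difference of -0.22. There labelled knockout replicate 2 was not above replicate 1. On the brightest probe sets of all 3 genes the replicate 2 arrays were above the replicate 1 arrays in both genotypes, and the groups overlapped.

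Myosin light chains behaved in the same way. Mylpf, the regulatory light chain of fast fibres, read 26332 and 44281 in the labelled knockout and 26705 and 40858 in wild type, a log2 difference of 0.05 ± 0.42 (SE). Myl1, the fast essential light chain, read 17867 and 32263 in the labelled knockout and 18070 and 29020 in wild type, a log2 difference of 0.07 ± 0.40 (SE). Within a replicate number the genotypes were close for both genes, at -0.02 and 0.12 for Mylpf and -0.02 and 0.15 for Myl1. The 99th percentile of all signals also moved with the number, at 16089 and 22432 in the labelled knockout and 15924 and 20907 in wild type. Mylpf and Myl1 lay above it on all 4 arrays, and 9 members did so on at least 1 array. The part of this spread in the members' values was not tested.

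Other fast genes differed in opposite directions in the 2 replicate numbers. Pvalb, parvalbumin, a calcium buffer that speeds relaxation of mature fast fibres, read 2614 and 205 in the labelled knockout and 787 and 1840 in wild type. Labelled knockout replicate 1 was the highest array and labelled knockout replicate 2 the lowest, with log2 differences of 1.71 within replicate number 1 and -3.07 within number 2. Mybpc2, the fast myosin-binding protein C, read 1466 and 209 in the labelled knockout and 488 and 994 in wild type, and it had the same highest and lowest arrays, with 1.56 and -2.16 within the numbers. Actn3, the alpha-actinin of fast fibre Z discs, read 2580 and 1567 in the labelled knockout and 1256 and 1821 in wild type, with 1.03 and -0.21. Casq1, the calsequestrin of fast fibres, read 6398 and 4359 in the labelled knockout and 5240 and 5480 in wild type, with smaller differences of 0.29 and -0.33.

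**Figure D2:**
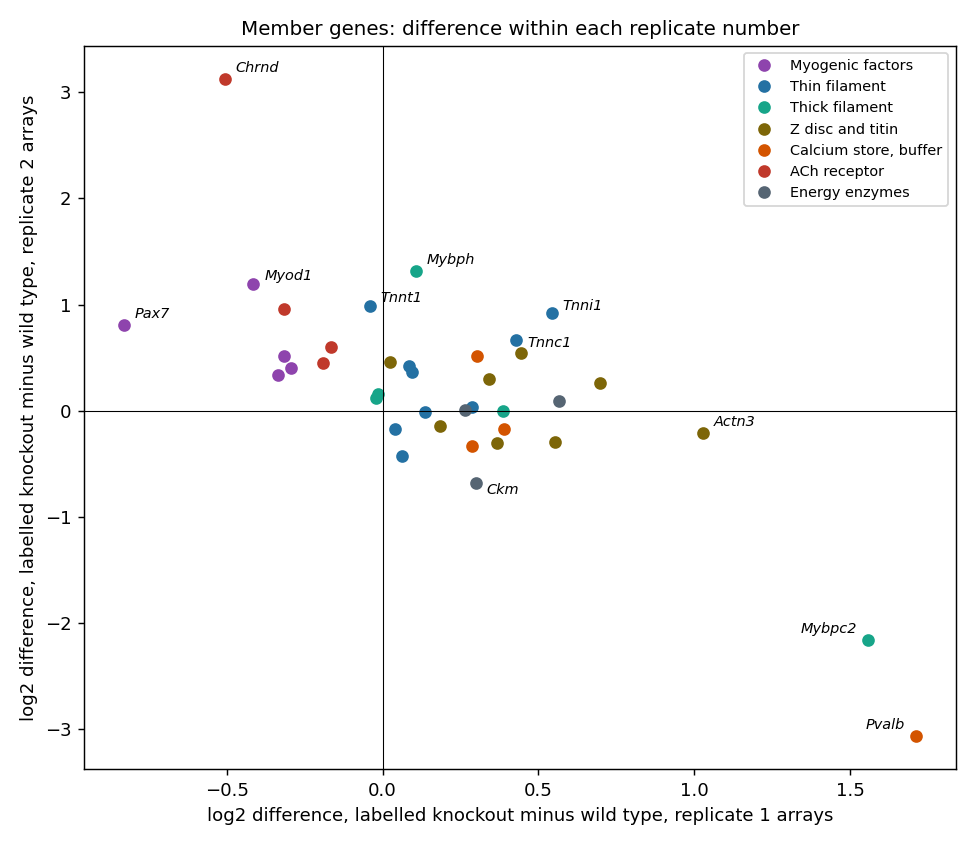
Log2 difference of each member gene, labelled knockout minus wild type, within replicate number 1 (x axis) and within number 2 (y axis), coloured by role. Pvalb and Mybpc2 lie at the lower right, while all 5 myogenic factors and all 4 acetylcholine receptor genes lie at the upper left.

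Fast and slow forms of the same protein were set against each other within each array. Signals of different probe sets are not comparable as levels, so only the difference of their log2 ratio between genotypes is given, and it shows unequal difference only. In 6 of 6 pairs the ratio of the first gene to its partner was lower in the labelled knockout, and the median over pairs was -0.42 in log2. All 6 were lower within number 2, with a median of -0.86, and 3 of the 6 within number 1, with a median of 0.08.

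The troponin pairs showed how much rested on single arrays. Tnni2 over Tnni1 differed by -0.57 between labelled knockout and wild type, with -0.26 and -0.88 within numbers 1 and 2, but wild type itself spread from -0.61 to 0.61 about its mean. Tnnc2 over Tnnc1 differed by -0.32, with -0.33 and -0.30 within the numbers, the most even of the 6 pairs in that respect. Its arrays still overlapped, at -0.60 and -0.03 in the labelled knockout and -0.27 and 0.27 in wild type, relative to the wild-type mean. Tnnt3 over Tnnt1 differed by -0.41 and stood at 0.07 and -0.89 in the labelled knockout and -0.11 and 0.11 in wild type, relative to the wild-type mean. Casq1 over Casq2 was the 1 pair without overlap between groups, at -0.11 and -0.75 in the labelled knockout and -0.09 and 0.09 in wild type, each relative to the wild-type mean. Mybpc2 over Mybpc1 differed by -0.50, made of 1.17 and -2.16, and Actn3 over Actn2 by -0.09, made of 0.59 and -0.76. The exact two-sided permutation p was 0.333 for Casq1 over Casq2, the smallest that 2 against 2 arrays can give, and 0.667 or 1 for the other pairs. Without labelled knockout replicate 2 the median over the pairs was -0.02, and 3 of 6 were lower.

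**Figure D3:**
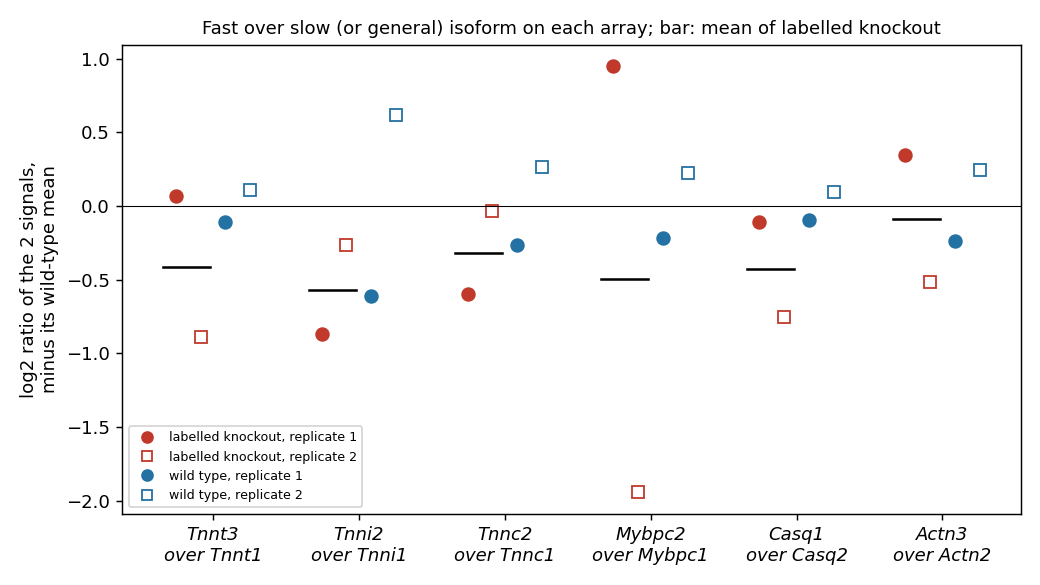
Log2 ratio of the signals of 2 related genes on each array, minus the mean of that ratio in wild type, for 6 pairs. In each pair the first gene is the fast form and the second the slow form, except Actn2, which all striated fibres use. Black bars are the labelled knockout means, which lie below 0 in all 6 pairs, though in Mybpc2 over Mybpc1 the 2 labelled knockout arrays are far apart.

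To show the sequence before these genes, promoter windows from 250 bases before to 50 after the start of a gene were taken from RefSeq (build GRCm38.p6), where 28 of 38 members had one, in 32 windows. The 4 printed are those of Tnni1, the slow gene with the smallest p, of Tnnc1 and Tnnc2 as a slow and fast pair, and of Myog, a factor that binds E-boxes. Capitals mark the E-box letters CANNTG, which read the same on both strands. The Tnni1 window, 1 of 2 listed for it, is chr1:135799171-135799470 on the plus strand, and Tnnc1 is chr14:31208062-31208361 on the plus strand. The Tnnc2 window is chr2:164779685-164779984 on the minus strand, and that of Myog is chr1:134289754-134290053 on the plus strand.
Tnni1: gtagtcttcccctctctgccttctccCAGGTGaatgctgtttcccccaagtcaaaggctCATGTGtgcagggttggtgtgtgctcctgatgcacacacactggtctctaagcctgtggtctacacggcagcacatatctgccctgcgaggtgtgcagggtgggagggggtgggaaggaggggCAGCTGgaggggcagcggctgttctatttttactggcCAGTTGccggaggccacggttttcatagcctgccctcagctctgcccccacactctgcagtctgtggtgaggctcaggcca
Tnnc1: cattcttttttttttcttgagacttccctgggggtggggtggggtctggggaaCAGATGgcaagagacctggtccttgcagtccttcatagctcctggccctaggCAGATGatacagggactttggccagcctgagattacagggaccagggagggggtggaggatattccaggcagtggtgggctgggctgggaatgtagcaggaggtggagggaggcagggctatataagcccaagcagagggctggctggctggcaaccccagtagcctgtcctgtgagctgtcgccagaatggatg
Tnnc2: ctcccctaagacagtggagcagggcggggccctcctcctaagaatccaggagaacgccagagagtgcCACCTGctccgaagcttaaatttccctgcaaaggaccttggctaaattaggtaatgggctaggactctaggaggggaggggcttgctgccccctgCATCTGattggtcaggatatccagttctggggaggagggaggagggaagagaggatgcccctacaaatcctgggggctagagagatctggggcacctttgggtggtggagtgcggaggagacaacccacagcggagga
Myog: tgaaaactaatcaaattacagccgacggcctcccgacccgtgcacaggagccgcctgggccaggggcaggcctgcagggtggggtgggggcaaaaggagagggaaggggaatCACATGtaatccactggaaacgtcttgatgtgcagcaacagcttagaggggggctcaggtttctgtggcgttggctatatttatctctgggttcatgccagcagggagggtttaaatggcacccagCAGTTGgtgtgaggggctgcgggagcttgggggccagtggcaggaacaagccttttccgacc

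The Tnni1 window held 4 such matches and the Tnnc1, Tnnc2 and Myog windows 2 each. Over the set, 27 of 32 windows, or 84.4%, held at least 1, against 72.3% of all 32851 promoter windows of that length. The narrower form CAGCTG, which is contained in CANNTG, was in 16 windows, or 50%, against 16.3% of all. Letters CTANNNNTA, part of the site of the muscle factor family MEF2, were searched on both strands and found in 18 windows, or 56.2%, against 21.0% of all. A TATAAA box on the gene's strand was in 3 windows, or 9.38%, against 8.32%. These matches describe letters only. Myog itself had 1 of the MEF2-like matches, Tnni1 had 1, and Tnnc1 and Tnnc2 had none in these windows.

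Myogenic regulators differed in opposite directions between the 2 replicate numbers. All 5 were lower in the labelled knockout within number 1, with a median of -0.33, and all 5 were higher within number 2, with a median of 0.51. Pooled, their median was 0.06. Each of the 5 was highest on labelled knockout replicate 2, as were 22 of the 37 tested members, against 31.5% of all genes tested. That array had the lowest median signal, at 426 and 320 in the labelled knockout and 459 and 416 in wild type. It also had the highest 99th percentile, 22432. The part of this wider range in where bright genes were highest was not tested. The 4 placental markers and 4 of 5 tendon markers were highest on that array too, and their part in these values was not tested.

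Pax7, the factor of muscle progenitors and satellite cells, read 1289 and 2492 in the labelled knockout and 2305 and 1420 in wild type. Labelled knockout replicate 2 and wild-type replicate 1 were the high arrays, so the groups overlapped, and the pooled difference was -0.01 ± 0.37 (SE). Myf5, the first of the family to act in the embryo, read 2036 and 3095 in the labelled knockout and 2571 and 2455 in wild type. Myod1, which commits cells to the muscle fate, read 1980 and 3950 in the labelled knockout and 2644 and 1713 in wild type, with log2 differences of -0.41 within replicate number 1 and 1.20 within number 2. Myog, needed for myoblasts to differentiate, read 6547 and 12469 in the labelled knockout and 8164 and 8737 in wild type. Labelled knockout replicate 2 stood above the other 3 arrays in Myod1 and Myog. Myf6, a late member of the family, had smaller differences, -0.29 and 0.41 within the numbers.

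Subunits of the muscle acetylcholine receptor, the channel at the nerve-muscle contact, had the same pattern as the myogenic factors. All 4 were lower within number 1, with a median of -0.25, and higher within number 2, with a median of 0.78. Chrna1, the ligand-binding alpha subunit, read 1260 and 2775 in the labelled knockout and 1573 and 1424 in wild type. Chrnb1, the beta subunit, read 3900 and 5119 in the labelled knockout and 4372 and 3369 in wild type, and Chrng, the gamma subunit of the fetal receptor, read 1351 and 1778 in the labelled knockout and 1544 and 1299 in wild type. The highest array was labelled knockout replicate 2 in each. Chrnd, the delta subunit, was the 1 member too dim to be tested, at 124 and 267 in the labelled knockout and 182 and 16.4 in wild type. Mybpc2 and Pvalb passed the minimum on their mean, and read below it on labelled knockout replicate 2, at 209 and 205.

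Acta1 and Neb, of the thin filament, overlapped between genotypes. Acta1, skeletal actin, read 17150 and 21614 in the labelled knockout and 16674 and 24318 in wild type, a log2 difference of -0.06 (SE 0.30). Neb, nebulin, the ruler protein along actin, read 6560 and 3981 in the labelled knockout and 6286 and 5354 in wild type, where labelled knockout replicate 2 was the lowest array, with 0.06 and -0.43 within the numbers. In the thick filament, Mybph, a relative of myosin-binding protein C found in fast muscle, read 2766 and 5987 in the labelled knockout and 2569 and 2393 in wild type. Its groups did not overlap, but the log2 difference of 0.71 was 0.11 within number 1 and 1.32 within number 2.

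Z-disc genes and titin were higher on labelled knockout replicate 1 than on wild-type replicate 1 in 8 of 8 cases, with a median of 0.41, and in 4 of 8 within number 2, with a median of 0.05. Actn2, the alpha-actinin of all striated fibres and heart, read 10510 and 11660 in the labelled knockout and 7724 and 7983 in wild type, without overlap. Its log2 difference was 0.49 ± 0.18 (SE), with an unadjusted 95% interval of 0.06 to 0.93, and 0.44 and 0.55 within the numbers. Klhl41, a Kelch protein that stabilises nebulin, read 6594 and 7993 in the labelled knockout and 6490 and 5822 in wild type. Actn2 and Klhl41 were the members of this group, beside Myoz2, in which both labelled knockout arrays exceeded both wild-type arrays.

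The others in this group, Ttn, Tcap, Xirp1, Ldb3 and Actn3 (described with the fast genes), overlapped between genotypes. Ttn, titin, the elastic protein that runs from Z disc to M line, read 18056 and 10633 in the labelled knockout and 13983 and 13148 in wild type. Its 6 probe sets disagreed, with log2 differences between -0.47 and 0.20. Tcap, which anchors titin at the Z disc, read 1791 and 827 in the labelled knockout and 1216 and 1017 in wild type. Xirp1, an actin-binding protein of heart and regenerating muscle, read 2584 and 999 in the labelled knockout and 1587 and 833 in wild type, and here both replicate 1 arrays were above both replicate 2 arrays. Ldb3, a Z-disc scaffold, read 15454 and 14517 in the labelled knockout and 13586 and 16098 in wild type, a difference of 0.02 ± 0.22 (SE).

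Among genes of the calcium store, beside Casq1 and Casq2, Trdn, triadin, which links calsequestrin to the calcium release channel, read 6459 and 3847 in the labelled knockout and 4929 and 4336 in wild type. On this brightest probe set the groups overlapped, with 0.39 and -0.17 within the numbers. The 6 probe sets of Trdn disagreed, with log2 differences between -0.13 and 0.59. Its second brightest set read 4085 and 3169 in the labelled knockout and 2820 and 2434 in wild type, without overlap.

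Energy enzymes of muscle differed in direction, with 2 of 3 higher. Pgam2, the muscle phosphoglycerate mutase, read 11406 and 9560 in the labelled knockout and 7698 and 8947 in wild type, without overlap, with log2 differences of 0.57 within replicate number 1 and 0.10 within number 2. Eno3, the muscle enolase, read 12870 and 15134 in the labelled knockout and 10705 and 15033 in wild type, and its wild-type arrays were further apart than the group means. Ckm, muscle creatine kinase, which buffers ATP, read 4920 and 2732 in the labelled knockout and 3994 and 4388 in wild type, with 0.30 and -0.68 within the numbers. Ckm thus shared its lowest array, labelled knockout replicate 2, with Pvalb, Mybpc2, Casq1, Neb, Ttn, Tcap and Trdn. That array was lowest for 8 of 38 members, against 3739 of 11694 genes tested, which is a larger share.

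Heart markers were all highest on labelled knockout replicate 1. Tnnt2, the heart troponin T that fetal skeletal muscle also makes, read 22356 and 19280 in the labelled knockout and 15070 and 13068 in wild type. Myh6, the atrial myosin, read 16214 and 294 in the labelled knockout and 9554 and 3202 in wild type, and Nppa, atrial natriuretic peptide, read 15926 and 131 in the labelled knockout and 7728 and 2974 in wild type. Of 10 heart markers 10 were highest on labelled knockout replicate 1 and 8 lowest on labelled knockout replicate 2, among them Myl7, the atrial light chain, at 19247 and 828 in the labelled knockout and 13358 and 7225 in wild type. Labelled knockout replicate 1 was also the highest array for 11 of 38 members, against 3309 of 11694 genes tested, which is nearly the same share. The 11 members included Xirp1, Tcap and Ttn, which heart also uses, and the fast-fibre genes Pvalb, Mybpc2, Actn3 and Casq1. Actn2, Tnnc1 and Casq2, which heart uses too, were highest on labelled knockout replicate 2. The members named here as used by heart are not a full list. Other slow members, Tnni1 and Myoz2 among them, cannot be read as skeletal muscle alone in this tissue. The part of heart tissue in these values was not tested. Within number 1, 10 of 10 heart markers and 6 of 7 slow members were higher in the labelled knockout, and within number 2, 2 of 10 heart markers and 6 of 7 slow members were. Labelled knockout replicate 2 was the highest array for 6 of 7 slow members, against 31.5% of all genes tested, and for 0 of 10 heart markers. Among the further muscle genes, Myh7, Myl2 and Myl3, of slow fibres and heart ventricle, were highest on labelled knockout replicate 1, as were the heart markers. The part of heart tissue in the values of slow-fibre genes was not tested either.

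**Figure D4:**
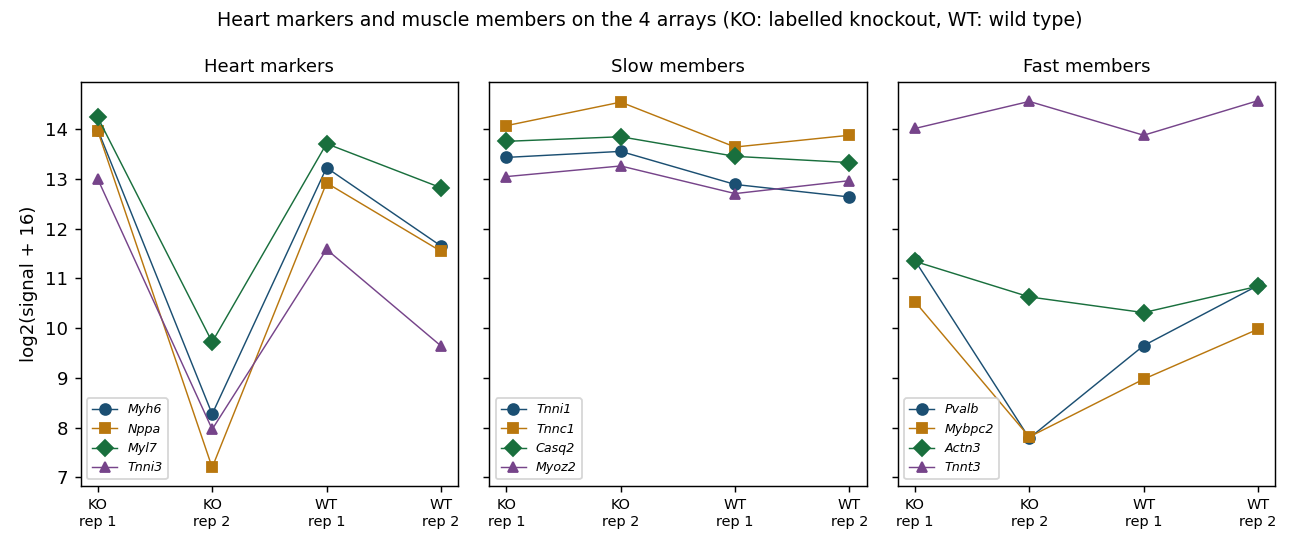
Log2(signal + 16) of 4 heart markers, 4 slow members and 4 fast members on the 4 arrays, with a line joining the values of each gene. Heart markers drop on labelled knockout replicate 2, the plotted slow members are highest there, and Pvalb and Mybpc2 are lowest there. Heights of different genes are not comparable.

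Other marker lists differed between arrays as well. Smooth muscle markers, 8 genes of the tracheal wall, summed to 49292 and 38274 in the labelled knockout and 44086 and 60936 in wild type, with medians of 0.29 and -1.01 within numbers 1 and 2. Tendon markers, 5 genes, summed to 14585 and 36506 in the labelled knockout and 21030 and 20692 in wild type. Like the myogenic factors, 4 of these 5 were highest on labelled knockout replicate 2. Thyroid markers summed to 21212 and 16269 in the labelled knockout and 22941 and 30038 in wild type, and thymus markers to 24176 and 8929 in the labelled knockout and 3684 and 11316 in wild type. Salivary gland markers summed to 15451 and 8539 in the labelled knockout and 1053 and 37705 in wild type. The part of neighbouring tissue in the members' values was not tested.

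A wider list of 52 further muscle genes, of which 49 were on the array and 44 tested, had 0 genes past the limma test. Of the 49, 42 were higher and 7 lower, with a median of 0.26, beside 0.04 and 6540 of 11694 higher over all genes tested. No myosin heavy chain passed either. Myh4 and Myh1, of adult fast fibres, had log2 differences of -2.60 and -2.12 without overlap. Within the numbers these were -1.57 and -3.62 for Myh4 and -1.18 and -3.05 for Myh1. Myh4 read 390 and 115 in the labelled knockout, both under the minimum for testing, and 1187 and 1599 in wild type. Only its wild-type signals thus brought Myh4 into the test, which limits every value given for it. Myh2, the adult fast-oxidative form, read 473 and 127 in the labelled knockout and 427 and 433 in wild type and was too dim to be tested. The embryonic form Myh3 read 14298 and 32084 in the labelled knockout and 14268 and 21633 in wild type, and the perinatal form Myh8 read 15264 and 16042 in the labelled knockout and 12250 and 18089 in wild type, with overlapping groups in both. Myh7, of slow fibres and heart ventricle, read 16893 and 4760 in the labelled knockout and 9097 and 4071 in wild type, and both replicate 1 arrays were above both replicate 2 arrays. Without labelled knockout replicate 1 the limma test called Myh4 (-3.41) and Myh1 (-2.89), and without labelled knockout replicate 2 it called Myh4 (-1.78), Myh1 (-1.34) and Myh7 (1.47). Signal may be shared between the probe sets of these closely related genes.

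Beyond the myosins, the smallest unadjusted p values in that list were those of Lmod3, an actin nucleator of thin filaments, at 2543 and 3111 in the labelled knockout and 1923 and 1638 in wild type, and Sln, sarcolipin, which inhibits the calcium pump, at 7960 and 9462 in the labelled knockout and 7440 and 5362 in wild type. Csrp3, a Z-disc LIM protein, read 16264 and 21015 in the labelled knockout and 13258 and 13090 in wild type, and Hrc, a calcium-binding protein of the store, read 1362 and 1143 in the labelled knockout and 904 and 844 in wild type. Their log2 differences were 0.66, 0.46, 0.49 and 0.51. Both labelled knockout arrays were above both wild-type arrays in these 4 genes, which were picked for their p. Over the whole list that was so for 14 of 44 genes tested, against 21.5% of all genes, and 3 of 44, Myh1, Myh4 and Fbp2, were lower without overlap, against 14.6%. Each had a limma adjusted p of 0.875 or more.

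The absence of calls depended on single arrays. Without labelled knockout replicate 1, when the lone knockout array is assumed to vary like wild type, 492 genes passed limma with Benjamini-Hochberg adjustment, or 4.21% of those tested, and 6 of 37 members did. Mybph (1.27), Tnnt1 (1.22), Myod1 (0.89) and Tnni1 (0.79) were higher in log2 difference. Pvalb (-2.46) and Mybpc2 (-1.66) were lower. On the lone labelled knockout array of that fit these 2 read 205 and 209, under the minimum of 397 for testing. Only the other arrays thus brought Pvalb and Mybpc2 into the test, which limits their values. All 6 values describe the difference of labelled knockout replicate 2 from wild type. Without labelled knockout replicate 2, 104 genes and 0 members passed, without wild-type replicate 2 it was 1 gene and 0 members, and without wild-type replicate 1 it was 0 of both.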

How the data were processed

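Embryonic tracheal RNA was extracted with Trizol and 50 ng was amplified as SPIA cDNA and labelled with biotin, per the labels' protocols. The deposited values are intensity values, a MAS5 signal for each probe set, as named in the submitters' processing notes. Which version and settings were used is not given here. With 2% of values trimmed at both ends, each array averaged 1500. Amplification favours 3' ends and MAS5 is noisy for dim probe sets, which can change differences. The 3' to 5' signal ratio of actin control probe sets was 1.90 and 1.97 in the labelled knockout and 1.69 and 1.66 in wild type, without overlap. For Gapdh it was 1.36 and 1.61 in the labelled knockout and 1.26 and 1.40 in wild type, with overlap. The part of this 3' bias in the differences between genotypes was not tested.

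Of 45101 probe sets 34945 had exactly 1 gene in the platform annotation, 932 several and 9160 none. Control probe sets (64) were left out, and old symbols were replaced by those of RefSeq with the same gene identifier. Genes were tested where the mean log2(signal + 16) of the brightest probe set reached the median of all probe sets, with limma 3.58.1 in R 4.3.3 (lmFit and eBayes, trend on, genotype alone in the model) and Benjamini-Hochberg adjustment at 0.05. Log2 differences understate those of dim genes. In simulated data with 200 changed genes, the same limma test found 48.1% of 2-fold and 98.2% of 4-fold changes. Of its calls there 9.96% were false, more than the 0.05 threshold allows. Each simulated array was drawn with independent normal noise, without differences by replicate number or tissue. The shares found are therefore no measure of power on the real arrays, where Myh4 (-2.60) and Myh1 (-2.12) had a limma adjusted p of 0.875. Nothing says that the replicates were separate embryos or litters, so p-values reflect variation among these samples only, possibly technical. The 2 arrays per group limit the precision. Values are mean ± SD, and SEs are moderated.

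Members, the fast and slow lists, pairs, further muscle genes and marker lists were chosen with earlier results of these data known. Named genes are all members, the Myh genes and 6 further muscle genes with the smallest p, Cacna1h, and the brightest markers of other tissues. Myh6, Nppa, Fbp2, Myl2, Myl3 and the genes plotted with Myh6 were chosen after their values were seen. Alternatives changed the pseudocount, filter, normalisation between arrays, intensity trend, probe set rule, replicate block and the arrays in the fit. Figures were drawn with matplotlib 3.10.9.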

Additional observations from a re-analysis of the deposited data

How the results depend on the processing

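Over all alternatives that kept the 4 arrays, 0 genes and 0 members passed. Leaving out 1 array gave 0 to 492 genes and 0 to 6 members. Centring of each array on its median gave a median of 0.27 over all genes tested, in place of 0.04, so that 36 members were above 0 but 28 above that shift, as in the uncentred values. Other settings gave lower counts. With quantile normalisation 27 of 38 members were above 0 and 23 above the median of all genes tested. With the mean of all probe sets these were 25 and 29. Leaving out 1 array gave 24 to 31 members above 0. Under centring the medians were 0.38 for members, 0.29 for fast, 0.64 for slow and 0.49 for further muscle genes. For the last list quantile normalisation gave 0.29 and the mean of all probe sets 0.21. Without 1 array, the medians ran from 0.10 to 0.36 for members, from -0.27 to 0.41 for fast, from 0.21 to 0.48 for slow and from 0.19 to 0.31 for further muscle genes, and from -0.64 to -0.02 for the isoform pairs. Fast members thus had no stable sign, and the slow median was above 0 under each of these settings. With the replicate number as a block (deviations of same-numbered arrays correlated at 0.32 over genes) 0 members passed, 6 in place of 2 had an unadjusted p under 0.05, and the smallest adjusted p among members was 0.349. It changed no call. Some single genes changed sign, and with 1 array left out these included genes as far from 0 as Pvalb (-0.68), Myh7 (0.56), Xirp1 (0.48) and Tnnt1 (0.47). With centring Acta1 was 0.17, Ckm 0.042, Myf5 0.23, Pax7 0.22, Neb 0.050 and Casq1 0.21. With quantile normalisation Mylpf was -0.066, Myl1 -0.035 and Ldb3 -0.011. With the mean of all probe sets Tnni2 was -0.066, Myod1 -0.093, Pax7 0.14, Ttn -0.13, Mybpc1 -0.36, Ldb3 -0.020 and Tpm3 -0.0050. Leaving out 1 array in turn gave these ranges, each crossing 0. Regulators and receptor: Myog -0.37 to 0.56, Myod1 -0.10 to 0.89, Myf5 -0.30 to 0.30, Myf6 -0.21 to 0.33, Pax7 -0.48 to 0.46, Chrna1 -0.24 to 0.88 and Chrng -0.067 to 0.33. Thin filament: Acta1 -0.34 to 0.21, Tnnt1 -0.28 to 1.22, Tnnt3 -0.29 to 0.41, Tnni2 -0.33 to 0.65, Tnnc2 -0.29 to 0.75 and Neb -0.54 to 0.18. Thick filament: Mylpf -0.33 to 0.42, Myl1 -0.36 to 0.49, Mybpc1 -0.089 to 0.47, Mybpc2 -1.66 to 1.06, Myh3 -0.30 to 0.87, Myh7 -0.35 to 1.47 and Myh8 -0.21 to 0.35. Others: Ttn -0.35 to 0.41, Tcap -0.42 to 0.68, Ldb3 -0.10 to 0.14, Xirp1 -0.20 to 1.16, Casq1 -0.30 to 0.26, Pvalb -2.46 to 1.11, Trdn -0.26 to 0.48, Eno3 -0.11 to 0.38 and Ckm -0.61 to 0.23. The cause was not tested beyond the arrays left out. Each gene rests on 2 arrays a group and on MAS5 signals without detection calls.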
